A study of Mus musculus with 8 samples.

Results

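The genes described here code for the contractile proteins, the calcium-handling proteins and 3 energy enzymes of skeletal muscle, read in brown adipose tissue, the fat that burns lipid to make heat. They were chosen by name, as 36 genes, with earlier results of these data known. Each of the 36 had 1 probe set among the 21115 of the table. Tissue came from 4 GRBATKO mice, bred to lack the glucocorticoid receptor in brown fat, and 4 control mice. All 8 mice were 16 to 20 weeks old at the start and then spent 1 week at 5 °C, so no group was kept warm. The controls are named wild type in the sample labels and Flox in the series' design text. Which promoter drives the Cre recombinase is not stated in the sources used here. RNA was hybridised to Affymetrix Mouse Gene 1.1 ST arrays, whose probes are spread over the exons of a gene, with 1 array per mouse. Values are log2 intensities, differences are GRBATKO minus wild type, and errors are SDs over the 4 arrays of a group unless an SE is named.

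Skeletal muscle contracts when myosin heads of the thick filament pull on actin of the thin filament. Calcium released from the sarcoplasmic reticulum binds troponin C and moves tropomyosin aside, and a calcium pump then returns it to the store. Fast and slow fibres build the same filaments from different members of each protein family. Muscle lies close to the brown fat between the shoulder blades, and brown adipocytes descend in part from precursors that express the muscle regulator Myf5. A muscle transcript read in this tissue can therefore come from muscle fibres taken with the fat or from cells of the fat itself, and in a bulk sample fewer cells of a type and less RNA per cell cannot be told apart.

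The labels held in the targeted gene, since Nr3c1, which codes for the glucocorticoid receptor, had 7.74 ± 0.10 in GRBATKO tissue against 8.61 ± 0.08 in wild-type tissue (n = 4 each), differing by -0.86 (SE 0.08, limma adjusted p = 0.00697). On the linear scale this is 0.549 of the wild-type level, and Nr3c1 passed the guide to background given below on all 8 arrays. Transcript signal of the receptor thus remained in GRBATKO tissue, and which cells it came from was not tested. Ucp1, the uncoupling protein that marks brown adipocytes, lay between 12.97 and 13.07 on all 8 arrays. In conflict with the tissue field, the labels' extraction protocol gives peritoneal macrophages as the source. Gata6, which marks those macrophages, lay between 4.0 and 4.83, and Timd4 between 3.09 and 4.40. Of 8 peritoneal macrophage genes, 4 passed the guide to background given below on all 8 arrays (58.8% of all probe sets), and 1 passed it on none. These values do not show the markers to be absent. Array medians lay between 4.42 and 4.44. Wild type 1 and wild type 4 had higher 25th percentiles, 3.03 and 3.05, than the other 6 arrays (2.84 to 2.90). All GRBATKO arrays lay in plate rows C and D and all wild-type arrays in rows A and B, so row and genotype cannot be told apart, whereas both groups used columns 5 and 7. The labels number the mice without saying how tissue was taken, so the p-values cover spread between samples that may be technical.

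The table gives no detection calls. Olfactory receptor genes, which are not thought to be used in fat, served as a rough guide to the level of an unused gene: the 95th percentile of their 1094 probe sets lay between 3.27 and 3.56 on the 8 arrays. The promoters of 6 members are shown because these genes mark both ends of what follows. Myh4, Atp2a1 and Acta1 had among the largest spans between their highest and lowest array, Tnnt1 had the smallest, and Des and Myl1 lay far above the guide on every array. Each sequence holds the 250 bases before the annotated start (RefSeq, GRCm38.p6), 5′ to 3′ on the gene's strand. Myh4 lies on the plus strand at chr11:67237562-67237811, Atp2a1 on the minus strand at chr7:126463074-126463323, Acta1 on the minus strand at chr8:123894776-123895025, Tnnt1 on the minus strand at chr7:4515976-4516225, Des on the plus strand at chr1:75360042-75360291 and Myl1 on the minus strand at chr1:66945057-66945306. Capitals mark the E-box CANNTG, which myogenic regulators bind, the sequence TATAAA, the CArG box, which serum response factor binds, and the MEF2 site, each searched on both strands.
Myh4: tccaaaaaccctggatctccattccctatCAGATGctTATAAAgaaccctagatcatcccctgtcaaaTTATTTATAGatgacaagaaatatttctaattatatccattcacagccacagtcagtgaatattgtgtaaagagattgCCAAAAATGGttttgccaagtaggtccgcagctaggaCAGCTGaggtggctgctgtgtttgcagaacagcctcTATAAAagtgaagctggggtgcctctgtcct
Atp2a1: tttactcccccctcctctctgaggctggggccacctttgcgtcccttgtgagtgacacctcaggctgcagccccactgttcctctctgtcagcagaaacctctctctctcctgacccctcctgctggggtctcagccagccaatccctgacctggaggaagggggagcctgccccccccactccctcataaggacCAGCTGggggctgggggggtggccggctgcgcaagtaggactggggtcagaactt
Acta1: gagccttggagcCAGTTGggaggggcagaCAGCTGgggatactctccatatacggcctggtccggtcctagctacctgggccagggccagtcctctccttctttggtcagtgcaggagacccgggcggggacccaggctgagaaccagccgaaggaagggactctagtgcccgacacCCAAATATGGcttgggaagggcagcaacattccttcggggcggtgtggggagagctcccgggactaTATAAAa
Tnnt1: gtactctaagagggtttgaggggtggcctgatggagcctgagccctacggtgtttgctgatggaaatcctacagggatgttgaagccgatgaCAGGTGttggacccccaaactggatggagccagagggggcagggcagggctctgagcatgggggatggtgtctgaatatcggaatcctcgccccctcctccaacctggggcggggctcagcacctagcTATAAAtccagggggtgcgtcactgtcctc
Des: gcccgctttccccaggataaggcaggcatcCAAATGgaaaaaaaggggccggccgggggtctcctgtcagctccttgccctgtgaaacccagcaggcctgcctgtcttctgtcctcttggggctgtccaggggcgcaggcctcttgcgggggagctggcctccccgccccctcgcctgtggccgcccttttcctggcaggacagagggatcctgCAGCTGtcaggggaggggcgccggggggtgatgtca
Myl1: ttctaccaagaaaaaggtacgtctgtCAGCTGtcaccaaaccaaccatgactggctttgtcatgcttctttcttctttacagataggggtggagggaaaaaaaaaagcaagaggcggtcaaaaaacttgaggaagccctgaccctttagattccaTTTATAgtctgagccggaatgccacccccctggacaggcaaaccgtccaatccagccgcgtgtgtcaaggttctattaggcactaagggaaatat
Of the 36 members, 27 had a promoter in the RefSeq table. An E-box was present in 22 of the 27, against 66.0% of all 27025 promoters of the same length, and TATAAA in 5 of the 27, against 13.0%. A CArG box was found in 3 (Acta1, Ldb3 and Myh4), against 1.40% of all promoters, and a MEF2 site in 5 (Myh1, Myh4, Pvalb, Ttn and Xirp2), against 3.01%. In Myh1 and Myh4 the MEF2 site overlaps a TATAAA match. The palindrome ACANNNTGT, the form of site that the glucocorticoid receptor binds, was found in 1 member, Ckm, against 5.91% of all promoters. Ckm, Pvalb and Ttn showed large spans, and so did Atp2a1, in whose window the search found 1 E-box and no other of these motifs. These matches are descriptions of the letters in the window.

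Acta1 (NCBI gene 11459), the skeletal α-actin of the thin filament, was the guide to how much skeletal muscle RNA a sample held. It read 4.31, 4.54, 4.39 and 7.72 in GRBATKO 1 to 4, against 4.84, 4.64, 9.29 and 5.62 in wild type 1 to 4. GRBATKO 4 and wild type 3 stood far above the other 6 arrays, wild type 4 stood somewhat above the remaining 5, and the groups overlapped. On the linear scale, GRBATKO 4 held 21.1% and wild type 3 held 62.3% of the Acta1 intensity summed over the 8 arrays, where equal arrays would hold 12.5% each. The group means were 5.24 ± 1.66 in GRBATKO and 6.10 ± 2.17 in wild type (n = 4 each), a difference of -0.86 (SE 1.09, limma adjusted p = 0.841; two-sided exact permutation test, p = 0.457). A correlation with Acta1 is not given, because GRBATKO 4 and wild type 3 lie apart from the other arrays and would set it.

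Most of the 36 members followed the same order of arrays. GRBATKO 4 was the highest array for 3 of the 36 members (10.4% of all probe sets) and wild type 3 for 29 (10.1% of all probe sets). For 26 members wild type 3 was highest and GRBATKO 4 second, which 1.54% of all probe sets showed, and for 18 of these wild type 4 came next. The span over the 8 arrays was at least 1 log2 unit for 28 members (6.37% of all probe sets) and at least 2 for 22 (0.635% of all probe sets, 134 in number). Summed over the 36 members, the linear intensity was 1392, 1374, 1256 and 2494 in GRBATKO 1 to 4, against 1333, 1389, 5956 and 1614 in wild type 1 to 4. The summed signal of the members thus differed between mice of 1 genotype by more than it did between the genotypes.

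**Figure D1:**
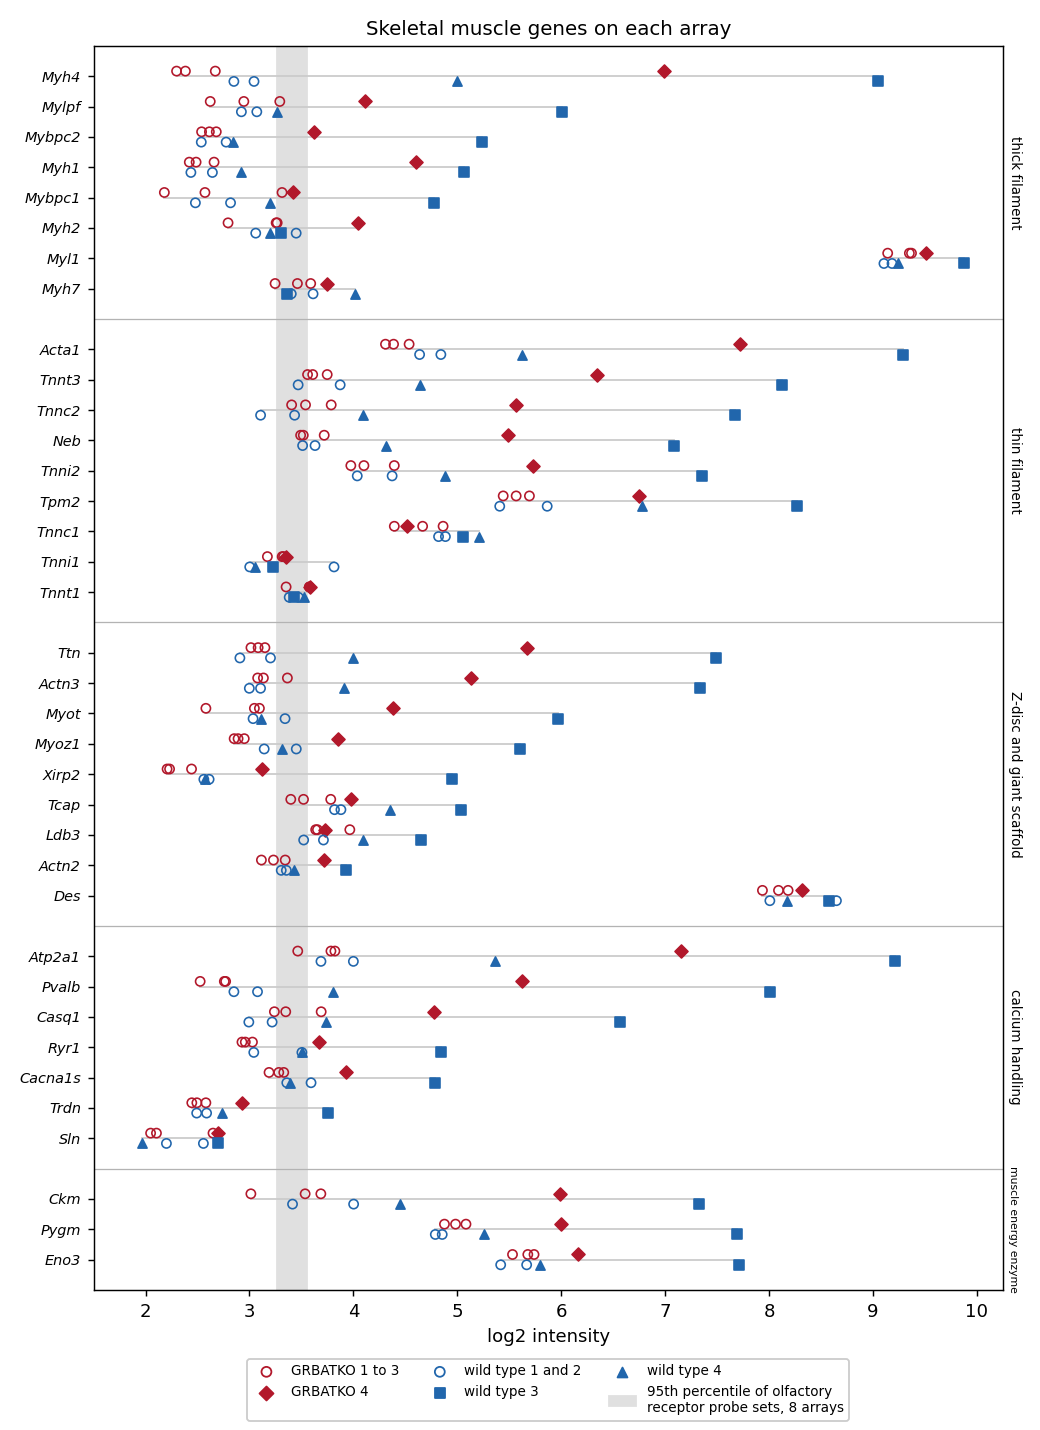
Log2 intensity (x axis) of each of the 36 muscle genes (rows, grouped by role) on the 8 arrays, with red for GRBATKO above blue for wild type in each row, filled symbols for GRBATKO 4, wild type 3 and wild type 4, and a grey line for the span. The grey band covers the 95th percentile of olfactory receptor probe sets on the 8 arrays, 3.27 to 3.56; wild type 3 is highest for 29 members and GRBATKO 4 second for 26 of these.

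The thick filament had the member of largest span. Myh4 (NCBI gene 17884), the myosin heavy chain of the fastest fibres (type IIb), read 2.38, 2.30, 2.67 and 6.99 in GRBATKO 1 to 4, against 3.04, 2.85, 9.05 and 5.00 in wild type 1 to 4. On 5 arrays it lay below the olfactory receptor guide, and its span of 6.75 log2 units came from GRBATKO 4, wild type 3 and wild type 4. Wild type 3 alone held 73.5% of its summed linear intensity. The log2 difference was -1.40 with an SE of 1.46 (limma adjusted p = 0.808), so the difference was smaller than its error.

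Myh1 (NCBI gene 17879), the type IIx heavy chain, read 2.49, 2.66, 2.42 and 4.60 in GRBATKO 1 to 4, against 2.64, 2.44, 5.06 and 2.92 in wild type 1 to 4. Again GRBATKO 4 and wild type 3 stood alone, but they were nearer to each other: the linear level on GRBATKO 4 was 0.726 of that on wild type 3 for Myh1 and 0.240 for Myh4. Myh2 (NCBI gene 17882), the type IIa heavy chain, read 3.27, 2.79, 3.26 and 4.04 in GRBATKO 1 to 4, against 3.45, 3.06, 3.30 and 3.20 in wild type 1 to 4. For this gene GRBATKO 4 was the highest array and the only one above the olfactory receptor guide. As wild type 3 lay below the guide, no ratio of the 2 arrays is given for Myh2. The ratios for Myh1 and Myh4 compare 2 arrays, so they have no test.

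Myh7 (NCBI gene 140781), the heavy chain of slow fibres and heart, read 3.59, 3.46, 3.25 and 3.75 in GRBATKO 1 to 4, against 3.61, 3.40, 3.36 and 4.01 in wild type 1 to 4. Its values had no peak on wild type 3, and it passed the guide on 7 arrays. Myl1 (NCBI gene 17901), the alkali light chain of fast fibres, read 9.35, 9.37, 9.14 and 9.51 in GRBATKO 1 to 4, against 9.18, 9.11, 9.88 and 9.24 in wild type 1 to 4. It was highest on wild type 3 and second on GRBATKO 4 by small steps, and all 8 values lay far above the guide. Its means were 9.34 ± 0.15 in GRBATKO and 9.35 ± 0.35 in wild type (n = 4 each), a difference of -0.01 (SE 0.17, limma adjusted p = 0.991).

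The other thick-filament genes were the fast regulatory light chain Mylpf and the myosin-binding proteins C of slow (Mybpc1) and fast (Mybpc2) fibres. Mylpf read 4.11 in GRBATKO 4 and 6.01 in wild type 3, and between 2.62 and 3.29 on the other 6 arrays. Mybpc2 read 3.62 in GRBATKO 4 and 5.24 in wild type 3, and between 2.54 and 2.84 elsewhere. For both, only GRBATKO 4 and wild type 3 passed the guide. Mybpc1 read 3.42 in GRBATKO 4 and 4.77 in wild type 3, while GRBATKO 1 at 3.31 lay close below GRBATKO 4.

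In the thin filament the fast troponin subunits split from the slow ones. Tnnt3, fast troponin T, read 3.61, 3.56, 3.75 and 6.34 in GRBATKO 1 to 4, against 3.87, 3.47, 8.12 and 4.64 in wild type 1 to 4. Tnnc2, fast troponin C, read 5.56 in GRBATKO 4 and 7.67 in wild type 3, and between 3.11 and 4.09 on the other 6 arrays. Tnni2, fast troponin I, read 5.73 in GRBATKO 4 and 7.35 in wild type 3, and between 3.98 and 4.89 on the other 6. All 3 fast subunits thus had wild type 3 first and GRBATKO 4 second.

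The slow subunits did not. Tnnt1 (NCBI gene 21955), slow troponin T, read 3.35, 3.58, 3.58 and 3.58 in GRBATKO 1 to 4, against 3.38, 3.47, 3.43 and 3.52 in wild type 1 to 4, and its span of 0.23 was the smallest of the 36. Tnni1, slow troponin I, read 3.35 in GRBATKO 4 and 3.22 in wild type 3, within the 3.0 to 3.81 of the other 6 arrays. Both stayed within the band of the olfactory receptor guide or close to it, on the arrays rich in Acta1 as on the others.

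Tnnc1 (NCBI gene 21924), the troponin C of slow fibres and heart, read 4.67, 4.39, 4.86 and 4.52 in GRBATKO 1 to 4, against 4.82, 4.89, 5.06 and 5.21 in wild type 1 to 4. The groups overlapped only in that GRBATKO 3 lay above wild type 1. Its means were 4.61 ± 0.20 in GRBATKO and 4.99 ± 0.17 in wild type (n = 4 each), a difference of -0.38 (SE 0.12). This had the smallest limma p-value of the members, and it did not pass the test (adjusted p = 0.469; two-sided exact permutation test, p = 0.0571, where 70 arrangements allow no p below 0.0286).

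Neb codes for nebulin, the giant protein that runs along the thin filament, and Tpm2 for β-tropomyosin, which slow fibres and smooth muscle also use. Neb read 5.49 in GRBATKO 4 and 7.09 in wild type 3, and between 3.49 and 4.32 on the other 6 arrays. Tpm2 read 5.44, 5.57, 5.69 and 6.75 in GRBATKO 1 to 4, against 5.87, 5.41, 8.27 and 6.78 in wild type 1 to 4. Here wild type 4 reached the level of GRBATKO 4. On wild type 4 the smooth muscle genes were also at their highest: Acta2, smooth muscle actin, read 9.71 there, against 7.54 to 8.44 in GRBATKO and 8.09 to 8.78 in the other wild-type samples. The part of smooth muscle in the Tpm2 values was not tested.

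Among the genes of the Z-disc, which anchors the thin filaments, and the giant scaffold, Ttn (NCBI gene 22138, titin) had the largest span. It read 3.15, 3.08, 3.01 and 5.67 in GRBATKO 1 to 4, against 3.20, 2.91, 7.49 and 4.0 in wild type 1 to 4. Actn3, the α-actinin of fast fibres, followed the same order, with 5.13 in GRBATKO 4 and 7.34 in wild type 3, and 3.0 to 3.91 on the other 6 arrays. Actn2, the α-actinin of all fibres and of heart, read 3.71 in GRBATKO 4 and 3.92 in wild type 3, and 3.12 to 3.43 elsewhere. Its span of 0.81 was small beside the 4.34 of Actn3.

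Myoz1 (NCBI gene 59011), calsarcin of fast fibres, which ties calcineurin to the Z-disc, read 2.89, 2.85, 2.95 and 3.85 in GRBATKO 1 to 4, against 3.45, 3.14, 5.61 and 3.31 in wild type 1 to 4. Myot, myotilin, read 4.38 in GRBATKO 4 and 5.97 in wild type 3, and 2.58 to 3.34 elsewhere. Xirp2, an actin-binding repeat protein, read 3.12 in GRBATKO 4 and 4.95 in wild type 3, and 2.21 to 2.61 elsewhere. Wild type 3 was the only array on which Xirp2 passed the guide.

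Tcap (NCBI gene 21393), telethonin, which caps titin at the Z-disc, read 3.52, 3.40, 3.78 and 3.98 in GRBATKO 1 to 4, against 3.88, 3.82, 5.03 and 4.35 in wild type 1 to 4. The groups overlapped through GRBATKO 4, which lay above wild type 1 and wild type 2. The means were 3.67 ± 0.26 in GRBATKO and 4.27 ± 0.56 in wild type (n = 4 each), a difference of -0.60 (SE 0.25, limma adjusted p = 0.563; two-sided exact permutation test, p = 0.114). Ldb3, a PDZ-LIM protein that binds α-actinin, read 3.72 in GRBATKO 4 and 4.65 in wild type 3, and 3.52 to 4.09 elsewhere, so GRBATKO 4 did not stand out.

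Des (NCBI gene 13346), desmin, the intermediate filament that links Z-discs and that smooth muscle also makes, read 8.18, 8.09, 7.94 and 8.32 in GRBATKO 1 to 4, against 8.01, 8.65, 8.58 and 8.17 in wild type 1 to 4. Its highest array was wild type 2, one of the arrays with low Acta1. The means were 8.13 ± 0.16 in GRBATKO and 8.35 ± 0.31 in wild type (n = 4 each), a difference of -0.22 (SE 0.15, limma adjusted p = 0.722).

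The calcium genes ranged from the second largest span of all members to values below the guide on every array. Atp2a1 (NCBI gene 11937), the SERCA1 pump that returns calcium to the sarcoplasmic reticulum of fast fibres, read 3.82, 3.78, 3.46 and 7.16 in GRBATKO 1 to 4, against 4.0, 3.69, 9.21 and 5.37 in wild type 1 to 4. Wild type 3 held 70.2% of its summed linear intensity, and the difference of -1.01 had an SE of 1.23 (limma adjusted p = 0.836). Atp2a2, the SERCA2 pump of heart, slow fibres and non-muscle cells, lay between 10.04 and 10.20 in GRBATKO and between 9.95 and 10.27 in wild type. The fast-fibre pump thus varied with Acta1 over arrays on which Atp2a2 was nearly level.

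Pvalb (NCBI gene 19293), parvalbumin, the calcium buffer of fast fibres, read 2.53, 2.77, 2.76 and 5.62 in GRBATKO 1 to 4, against 3.08, 2.85, 8.01 and 3.80 in wild type 1 to 4. Casq1, the calcium-storing calsequestrin of skeletal muscle, read 4.77 in GRBATKO 4 and 6.56 in wild type 3, and 2.99 to 3.73 elsewhere. Both had the same order of the top arrays as Acta1. Wild type 3 held 72.4% of the summed Pvalb intensity and 51.1% of that of Casq1.

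Ryr1 (NCBI gene 20190), the calcium release channel of the sarcoplasmic reticulum, read 2.96, 3.03, 2.93 and 3.67 in GRBATKO 1 to 4, against 3.50, 3.04, 4.84 and 3.50 in wild type 1 to 4. It passed the guide only on GRBATKO 4 and wild type 3, and its difference of -0.58 (SE 0.34) did not pass the test (limma adjusted p = 0.683). Cacna1s, the voltage sensor that opens Ryr1, read 3.93 in GRBATKO 4 and 4.79 in wild type 3, and 3.19 to 3.59 elsewhere. Trdn, triadin, which joins Ryr1 to calsequestrin, read 2.93 in GRBATKO 4 and 3.76 in wild type 3, and 2.45 to 2.73 elsewhere. Ryr1, Cacna1s and Trdn were thus highest on wild type 3 and second on GRBATKO 4, as most filament genes were. Their spans were 1.91, 1.60 and 1.32, beside medians of 2.62 for the thick and 3.38 for the thin filament, where some members had smaller spans. Trdn passed the guide on wild type 3 alone, and its value on GRBATKO 4 lay under the guide of that array (3.36).

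Sln (NCBI gene 66402) codes for sarcolipin, a small inhibitor of the SERCA pumps that uncouples them from calcium transport in muscle and so makes heat. It read 2.05, 2.11, 2.65 and 2.70 in GRBATKO 1 to 4, against 2.56, 2.20, 2.69 and 1.97 in wild type 1 to 4. It was the only member that passed the olfactory receptor guide on no array, wild type 3 included. Its means were 2.37 ± 0.35 in GRBATKO and 2.36 ± 0.33 in wild type (n = 4 each), a difference of 0.02 (SE 0.20, limma adjusted p = 0.983).

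The 3 energy enzymes had wild type 3 first and GRBATKO 4 second. Ckm (NCBI gene 12715), muscle creatine kinase, read 3.01, 3.54, 3.69 and 5.99 in GRBATKO 1 to 4, against 4.0, 3.41, 7.33 and 4.45 in wild type 1 to 4. Eno3 (NCBI gene 13808), muscle enolase of glycolysis, read 5.68, 5.74, 5.53 and 6.16 in GRBATKO 1 to 4, against 5.42, 5.67, 7.71 and 5.80 in wild type 1 to 4. Pygm, muscle glycogen phosphorylase, read 6.0 in GRBATKO 4 and 7.69 in wild type 3, and 4.79 to 5.26 elsewhere. Eno3 and Pygm kept a level well above the guide on the arrays with low Acta1, whereas Ckm lay below it on GRBATKO 1.

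**Figure D2:**
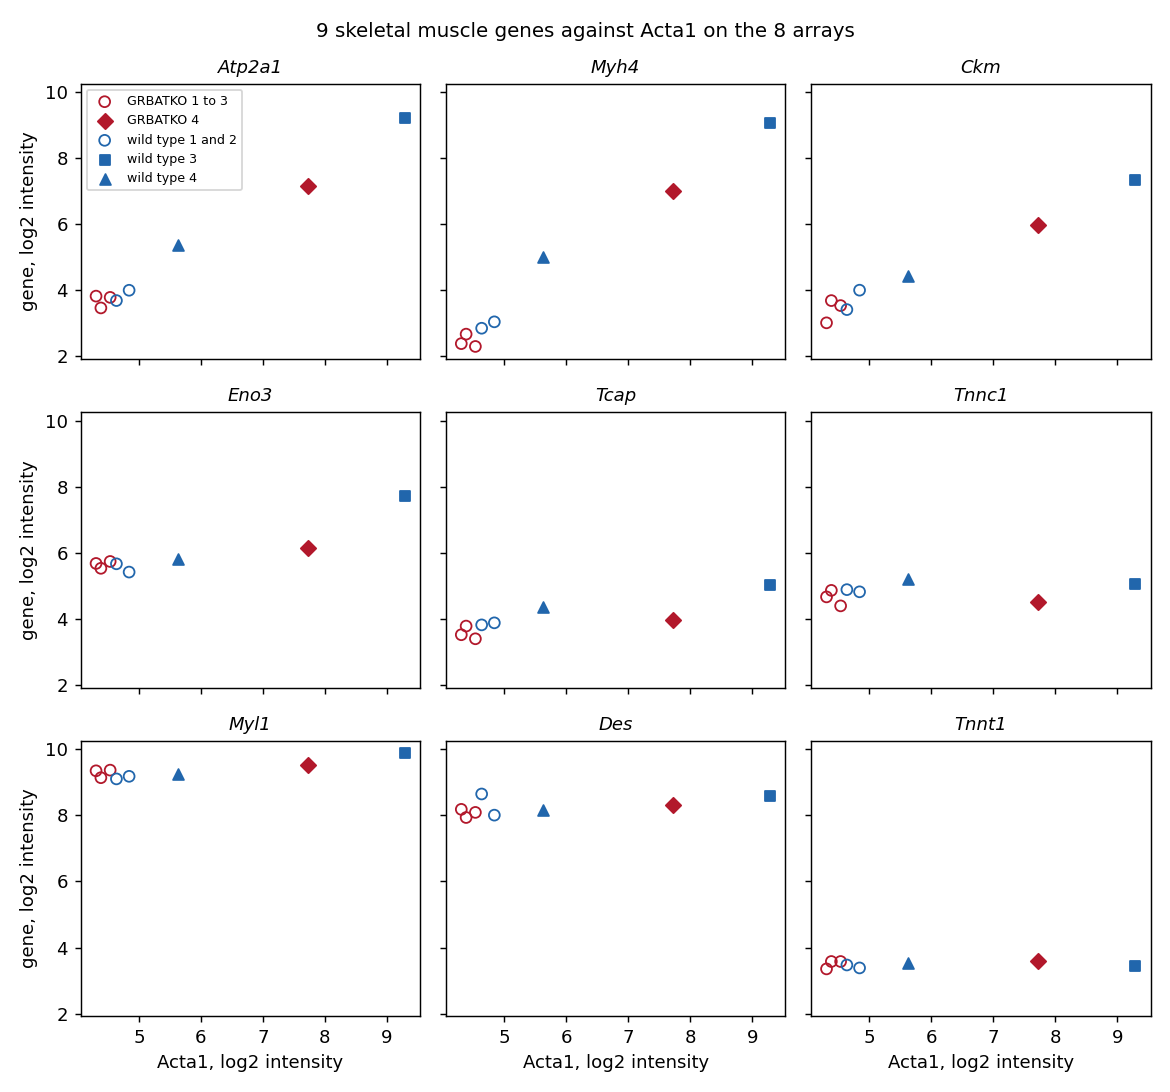
Log2 intensity of 9 muscle genes (y axis) against that of Acta1 (x axis), with 1 point per array, in red for GRBATKO and blue for wild type. Atp2a1, Myh4 and Ckm are highest on wild type 3, then GRBATKO 4, then wild type 4, with no steady climb over the other arrays. Eno3 and Tcap are raised mainly on wild type 3, and Tnnc1, Myl1, Des and Tnnt1 stay within a span of 0.81.

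By fibre class, 11 of the 12 fast-fibre isoforms had wild type 3 first and GRBATKO 4 second, with Myh2 as the exception, and their spans had a median of 3.86. None of the 4 genes in the slow-fibre class (Myh7, Tnnc1, Tnni1 and Tnnt1) had wild type 3 as the highest array, and their spans ran from 0.23 to 0.81. In the fit with Acta1 as a covariate, the slope of a member on Acta1 was 0.11 to 1.33 for the fast isoforms and -0.01 to 0.01 for those 4. Of those 4, only Tnnc1 passed the olfactory receptor guide on all 8 arrays, while Myh7, Tnni1 and Tnnt1 lay near it. Small spans and flat slopes at such levels cannot be told from background. Mybpc1, the myosin-binding protein C of slow fibres, was in neither class, and it did not go with the 4: wild type 3 was highest and GRBATKO 4 second, with a span of 2.59 and a slope of 0.37. The split between the classes therefore does not cover every slow-fibre gene among the members. A slope of at least 0.5 was found for 15 probe sets of the table other than Acta1, and all 15 were members. The members were chosen with earlier results of these data known, so this overlap is not a test. Among 47 other skeletal muscle genes the largest slope was 0.39. Slopes are descriptions of 8 arrays, in which GRBATKO 4 and wild type 3 carry most of the weight.

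The arrays with Acta1 under its median were GRBATKO 1, 2 and 3 and wild type 2. On these 4 arrays 14 members stayed above the olfactory receptor guide, against 60.9% of all probe sets. They were Myl1, Acta1, Tpm2, Tnnc1, Tnni2, Tnnt1, Tnnt3, Neb, Des, Ldb3, Tcap, Atp2a1, Eno3 and Pygm. All but Tnnt1 also passed it on all 8 arrays, which makes 13 members, against 58.8% of all probe sets. With the 99th percentile of the olfactory receptors as the guide, 7 members remained: Myl1, Acta1, Tpm2, Tnnc1, Des, Eno3 and Pygm. With their median as the guide, 33 passed, so the count rests on where the guide is set.

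The members that stayed above both guides were of different kinds. Des, Tpm2 and Tnnc1 are also made by smooth or heart muscle, Eno3 and Pygm are enzymes of glycolysis and glycogen breakdown, and Acta1 and Myl1 are filament proteins of skeletal muscle. Tnni2, Tnnt1, Tnnt3, Neb, Ldb3, Tcap and Atp2a1 passed the 95th percentile on the 4 arrays and not the 99th on all of them. At the other end, 8 members passed the guide on 2 arrays, and for 7 of them (Myh1, Mylpf, Mybpc1, Mybpc2, Myot, Myoz1 and Ryr1) these were GRBATKO 4 and wild type 3. A gene below the guide is not shown to be unused, since probe sets differ in their own background.

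No muscle gene differed between the genotypes past the test. Of the 36 members 0 passed an adjusted p of 0.05 (limma, Benjamini-Hochberg over 21115 probe sets), against 0.0237% of all probe sets, which was 5. An unadjusted p under 0.05 was found for 2 members, Tnnc1 and Tcap, both lower in GRBATKO, against 8.62% of all probe sets. For 0 members did the groups not overlap, against 5.64%. The members' means were lower in GRBATKO for 32 and higher for 4, where 50.6% of all probe sets were lower. The median of their differences was -0.49, against -0.0022 over all probe sets, and the differences ran from -1.40 (Myh4) to 0.09 (Myh2). The median SE of 0.53 was larger than that median difference.

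That median rested on single arrays. Without wild type 3 it was 0.11, with 24 members higher in GRBATKO (49.6% of all probe sets), and without GRBATKO 4 it was -0.74. Within array column 5, which holds wild type 3, the median was -1.38 with 35 members lower (49.5% of all probe sets). Within column 7, which holds GRBATKO 4, it was 0.29 with 30 members higher (48.7% of all probe sets). The direction of the list thus turned with the column.

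Without both GRBATKO 4 and wild type 3, 29 members were lower in GRBATKO (51.0% of all probe sets), with a median of -0.19. In that fit 6 members had an unadjusted p under 0.05, against 7.74% of all probe sets, and the smallest adjusted p of a member was 0.537 (limma). Wild type 4 and wild type 1, which then make up most of the wild-type group, had 25th percentiles of 3.05 and 3.03, against 2.88 to 2.89 in GRBATKO 1 to 3, and many of the members lie at such low intensities. Wild type 4 also came next after GRBATKO 4 and wild type 3 in Acta1. The part of either in the lower values was not tested.

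**Figure D3:**
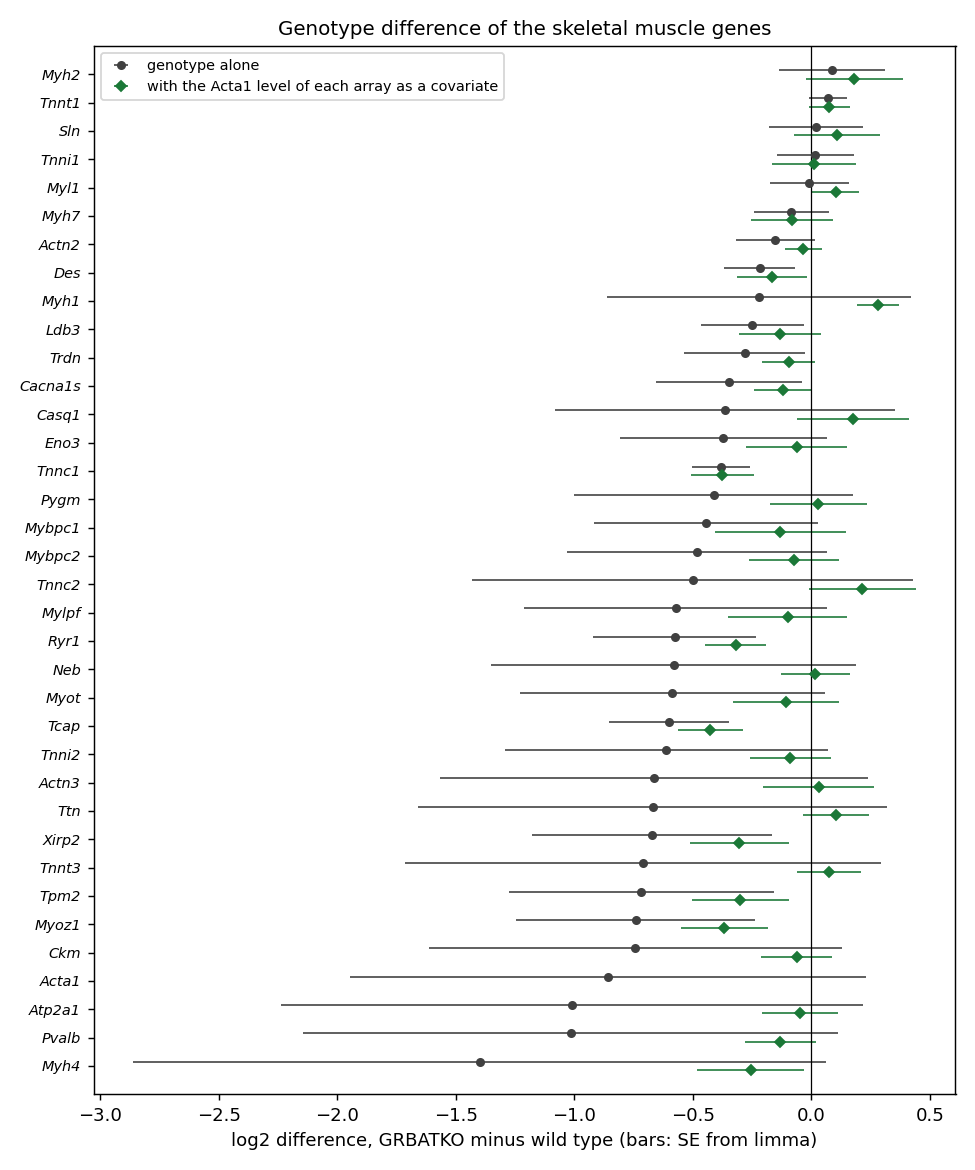
Log2 difference (x axis), GRBATKO minus wild type, of each muscle gene (rows), with bars for the SE from limma. Dark circles are from the fit with genotype alone, where 32 of 36 members lie below 0, and green diamonds from the fit with the Acta1 level of each array as a covariate, where 22 of 35 lie below 0 and the bars are shorter.

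With the Acta1 level of each array in the model, the members' differences drew in around 0. Of 35 members 0 passed an adjusted p of 0.05 (limma), against 0.0189% of all probe sets, and 22 were lower and 13 higher in GRBATKO, where 50.5% of all probe sets were lower. The median difference was -0.07, with a range of -0.43 to 0.28, and the median SE was 0.17, less than in the fit with genotype alone. At equal Acta1, Myh4 had -0.26, Atp2a1 -0.05, Pvalb -0.13, Tnnt3 0.07, Ttn 0.10, Tnnc2 0.21, Actn3 0.03 and Ckm -0.06.

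An unadjusted p under 0.05 was found at equal Acta1 for 4 members, against 7.65% of all probe sets. Tcap had -0.43 (SE 0.14, limma adjusted p = 0.555), Tnnc1 -0.38 (SE 0.13, limma adjusted p = 0.601) and Ryr1 -0.32 (SE 0.13, limma adjusted p = 0.620). Myh1 had 0.28 (SE 0.09, limma adjusted p = 0.545), the opposite direction. None of the 4 passed the test over all probe sets. Tnnc1 had -0.38 with and without Acta1 in the model, and its slope on Acta1 was 0.01. With the mean of the other skeletal muscle genes in place of Acta1, the median of the members was 0.38. In that fit 32 of 36 were higher in GRBATKO (49.9% of all probe sets). An unadjusted p under 0.05 (limma) was found for 15 of the 36, against 1438 of 21115 probe sets, and 0 were called. Ryr1 turned sign, to 0.0510, while Tcap, Tnnc1 and Myh1 did not. The members' differences thus depended on the covariate chosen. The mean of the other skeletal muscle genes is not an equal substitute for Acta1. It lay only 0.02 above its average on GRBATKO 4 and 0.50 above it on wild type 3, where the members' mean lay 0.73 and 1.91 above theirs. It also includes Mb, described below, whose groups did not overlap. With Ckm in place of Acta1 the median was -0.05, with 20 lower and 15 higher of 35, and the 4 genes kept their signs.

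Other marker lists set these values in context. The other skeletal muscle genes, 47 measured of 50, had a median difference of -0.17, with 42 lower in GRBATKO and 0 called. Over all probe sets 50.6% were lower and 0.0237% were called. Their mean log2 level lay 0.02 above its average over the arrays on GRBATKO 4 and 0.50 above it on wild type 3, and between -0.18 and 0.03 on the rest, where the 36 members had 0.73 on GRBATKO 4 and 1.91 on wild type 3. Among them Mb, myoglobin, the oxygen store of muscle, read 6.55, 6.73, 6.05 and 7.0 in GRBATKO 1 to 4, against 7.99, 8.83, 8.12 and 7.14 in wild type 1 to 4. All GRBATKO values lay below all wild-type values, and Mb was highest on wild type 2, an array with low Acta1. Its difference of -1.44 (SE 0.32) did not pass the test (limma adjusted p = 0.278). Klhl40, a stabiliser of thin-filament proteins, had -0.40 (SE 0.14, limma adjusted p = 0.504).

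Cardiac genes (12 measured of 12) had a median difference of -0.11, with Myh6 (α-myosin heavy chain) at -0.36 and Ryr2 (the release channel of heart) at -0.36. Smooth muscle genes (10 of 10) had -0.41, with Synpo2 at -0.47 and Acta2 at -0.70, and their mean level was highest on wild type 4. Myogenic regulators (11 of 11) had -0.04, with Myf6 at -0.24 and Myod1 at -0.23. Of the 11, 5 passed the olfactory receptor guide on all 8 arrays (58.8% of all probe sets) and 6 on no array. Calcium genes used outside skeletal muscle (12 of 14) had -0.02, with Calr (calreticulin) at 0.15 and Itpr2 (an inositol trisphosphate receptor) at 0.13. Brown adipocyte genes (13 of 13) had 0.01, with Dio2 (the deiodinase that activates thyroid hormone) at -0.53 and Adipoq (adiponectin) at 0.10. Macrophage genes (8 of 8) had 0.06, with Cd14 at 0.43 and Fcgr1 at -0.32, and peritoneal macrophage genes (8 of 8) had 0.09, with Prg4 at 0.28 and Gata6 at 0.20. In each of these lists 0 genes were called by limma, against 0.0237% of all probe sets, so 0 calls in lists this short say little. Lower in GRBATKO were 11 of 12 cardiac, 9 of 10 smooth muscle and 10 of 11 myogenic genes, where 50.6% of all probe sets were lower. The count was 8 of 12 for the calcium genes, 4 of 13 for brown adipocyte genes and 3 of 8 for each macrophage list. A mostly lower direction was thus not particular to the skeletal muscle genes.

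Summed linear intensity of the brown adipocyte list stayed between 32099 and 32918 in GRBATKO and between 31078 and 32604 in wild type. The mean log2 level of that list lay -0.06 from its average over the arrays on GRBATKO 4 and 0.13 from it on wild type 3, the highest of the 8 arrays. The summed intensity of the macrophage list ran from 565 to 913 in GRBATKO and from 518 to 762 in wild type. The part of muscle fibres in the tissue pieces in the genotype differences of the 36 members was not tested, as the labels record no dissection.

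**Figure D4:**
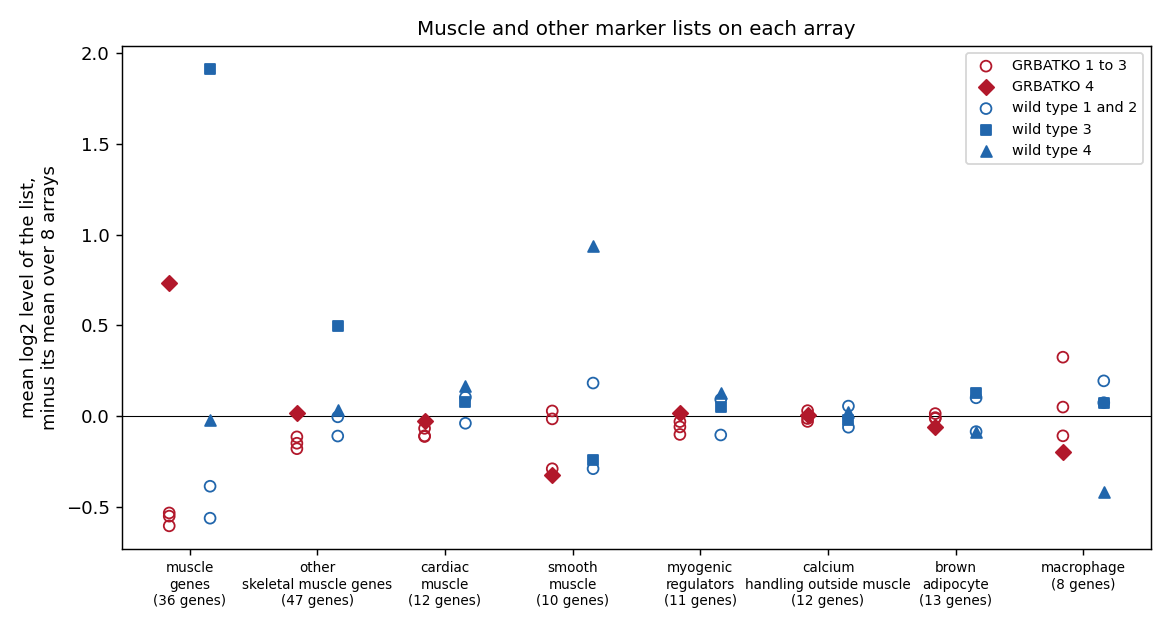
Mean log2 level of each marker list on each array, minus the mean of that list over the 8 arrays (y axis), with red for GRBATKO left of blue for wild type. The 36 muscle genes reach 0.73 on GRBATKO 4 and 1.91 on wild type 3, the other skeletal muscle genes 0.02 and 0.50, and smooth muscle genes peak on wild type 4.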

How the data were processed

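Brown adipose tissue of 4 GRBATKO and 4 wild-type mice was measured on Affymetrix arrays. The deposited table holds 1 intensity per probe set and array, summarised with RMA per the submitters' processing notes, and returned by the authors to a linear scale, as the values (2.07 to 9168) show. No RMA version, genome build or batch correction is given in the sources used here. A log2 value was taken of each deposited intensity. The platform annotation named 20405 of 21115 probe sets, and the other 710 were tested without a name.

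Genotypes were compared over all probe sets by lmFit and eBayes of limma (version 3.58.1, under R 4.3.3), with genotype as the only term, and again with the log2 level of Acta1 as a covariate (21114 probe sets). P-values were adjusted by Benjamini-Hochberg at 0.05. Single members were also compared with an exact permutation test, two-sided, over the 4 and 4 arrays. Intensities have no depth, so precision is set by the number of arrays. The script was tested on simulated data.

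The members, lists, named genes and tests were chosen with earlier results of these data known. Members given in full were Acta1, those with the smallest p-values in either fit (4 each), the 4 largest and 4 smallest spans, and the largest and smallest span in each role and fibre class. Of each other list, the 2 genes with the smallest p-values were named. Atp2a2, Timd4, Ucp1 and the array values of Acta2 were named outside this rule, after their values were seen, and so were the remaining members and Nr3c1, the targeted gene.

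Alternatives were an intensity trend or robust prior, median centring, repeated quantile normalization, removal of probe sets whose mean lay under the 40th percentile, log2 of the value plus 16, blocks for replicate number and array column, each column alone, each array left out, both arrays rich in Acta1 left out, Ckm or the other skeletal muscle genes as the covariate, and other guides to background. Same-numbered arrays did not deviate together (correlations of -0.03, 0.09, -0.06 and 0.03), so the numbers were not taken as pairs. Figures were drawn with matplotlib 3.10.9.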

Additional observations from a re-analysis of the deposited data

Results flagged for a closer look

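In each group of 4 arrays, the gap between the highest or lowest array and its neighbour was divided by the group's range and set against Dixon's 95% critical value for 4 samples. Of 72 groups (36 members in 2 genotypes), 21 passed, where the nominal rate of the critical value is about 1 in 20. The share of all probe sets that pass the same rule was not computed. The groups are not independent, since the same arrays recur.

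In GRBATKO, array 4 stood above the others for 12 members. The ratio was 0.949 for Ttn, 0.933 for Acta1, 0.932 for Tnnt3, 0.921 for Pvalb, 0.921 for Myh4, 0.903 for Atp2a1 and 0.902 for Myoz1. It was 0.891 for Myh1, 0.886 for Neb, 0.870 for Mybpc2, 0.863 for Ryr1 and 0.860 for Actn3.

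In wild type, array 3 stood above the others for 8 members. The ratio was 0.979 for Xirp2, 0.895 for Myot, 0.889 for Mylpf, 0.887 for Mybpc2, 0.875 for Myoz1, 0.839 for Pygm, 0.836 for Cacna1s and 0.834 for Eno3. Acta1, Myh4 and Atp2a1 did not pass in wild type, where array 4 lies between array 3 and the rest. In GRBATKO, array 1 stood below the others for Tnnt1, with a ratio of 0.994, although the range there was only from 3.35 to 3.58.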

How the results depend on the processing

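No member passed an adjusted p of 0.05 in limma under any alternative run, and the smallest adjusted p of a member was 0.325 with genotype alone and 0.234 with a covariate. Directions moved with single arrays. Within array column 7 the median difference of the members was 0.29, and Acta1 had 0.999, Ryr1 0.0756, Myoz1 0.13, Myh1 0.95, Myh4 0.72, Atp2a1 0.94, Pvalb 0.87, Ttn 0.92, Ckm 0.83, Eno3 0.22 and Myl1 0.27. Within column 5 Sln had -0.28. Without both GRBATKO 4 and wild type 3, Eno3 had 0.0216, Myl1 0.11 and the median at equal Acta1 was 0.0549. With the mean of the other skeletal muscle genes as the covariate, the median was 0.38 and Ryr1 had 0.0510. The cause of these turns was not tested, beyond the arrays each setting leaves out.

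Leaving out 1 array at a time, the median ran from -0.75 to 0.11, where wild type 3 turned it, and the median at equal Acta1 from -0.13 to 0.0855, where GRBATKO 4 did. Over the same fits, Acta1 ran from -1.69 to 0.20, Myh1 from -0.74 to 0.38, Atp2a1 from -1.88 to 0.20, Pvalb from -1.75 to 0.18, Ttn from -1.32 to 0.36, Ckm from -1.39 to 0.10, Eno3 from -0.62 to 0.15 and Myl1 from -0.0908 to 0.17. Without a change of sign, but by over 1.5 times, Myh4 ran from -2.54 to -0.05, Ryr1 from -0.80 to -0.20, Tcap from -0.75 to -0.35, Myoz1 from -0.99 to -0.16, Des from -0.33 to -0.12 and Tnnt1 from 0.05 to 0.13, and at equal Acta1 Tcap from -0.51 to -0.28 and Ryr1 from -0.43 to -0.16. Sln ran from -0.11 to 0.13 and Myh7 from -0.16 to 0.0531. With the replicate block the median was -0.49 (-0.07 with Acta1), and 0 members were called.

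The 99th percentile of the olfactory receptors left 7 members above it on the arrays with low Acta1, and their median left 33. Over all probe sets the count of calls was 5 with genotype alone, 30 with an intensity trend, 14 without dim probe sets, 12 with log2 of the value plus 16, 8 with repeated quantile normalization and 1 with the replicate block. The filter on dim probe sets kept 20 members. All other settings kept the direction of the members given in full, and low intensities cannot be told from background here.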
